A study of Homo sapiens with 18 samples.

Results

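The genes described are 10 enzymes that make, convert or inactivate androgens: CYP11A1, HSD17B4, HSD17B6, HSD17B10, AKR1C3, SRD5A1, SRD5A3, UGT2B7, UGT2B15 and UGT2B17. They were chosen by symbol among the 37256 genes of the DU145 table and then found by Ensembl identifier among the 22360 genes of the C4-2B table and the 25716 of the 22Rv1 table, and all 10 are in all 3 tables. The data are RNA-seq read counts per gene from 18 libraries of human prostate cancer cell lines in 6 groups of 3. C4-2B, a castration-resistant derivative of LNCaP, 22Rv1, from a relapsed xenograft, and DU145, from a brain metastasis, each have 3 control libraries and 3 libraries in which EMD was knocked down. EMD encodes emerin, a protein of the inner nuclear membrane, and the series compares cells with and without its knockdown. Per the labels' protocols, all cells received an siRNA by lipid transfection, either scrambled or against EMD, and the mix was taken off after 24 hours. The time of harvest is not stated. The DU145 knockdown libraries are named shEMD, so which reagent those cells received is not settled by the labels. DU145 was kept in DMEM and the other two lines in RPMI-1640.

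Androgens are built from cholesterol. CYP11A1 cuts the side chain to give pregnenolone, CYP17A1 and HSD3B enzymes turn pregnenolone into androstenedione, 17-beta-hydroxysteroid dehydrogenases such as AKR1C3 reduce it to testosterone, and 5-alpha reductases make dihydrotestosterone, the strongest natural ligand of the androgen receptor. Oxidative enzymes such as HSD17B6 can return a spent 3-alpha reduced androgen to dihydrotestosterone. In prostate cells UGT2B15 and UGT2B17 attach glucuronic acid to testosterone, dihydrotestosterone and their metabolites, which ends their action and makes them soluble.

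Each C4-2B library held 14722733 to 25112148 reads, each 22Rv1 library 15602874 to 30788078 and each DU145 library 21024352 to 43311727. EMD was lower in every knockdown library than in every control library of its line. Its log2 fold change of knockdown over control was -3.07 ± 0.11 in C4-2B, -1.73 ± 0.07 in 22Rv1 and -3.21 ± 0.08 in DU145 (± SE, n = 3 libraries per arm, edgeR adjusted p = 3.37e-14, 4.29e-14 and 1.67e-22). KLK3, which encodes prostate-specific antigen, was at 1509 ± 11.0 CPM (reads per 1000000 reads of a library, scaled by TMM, which assumes that most genes do not change; mean ± SD) in C4-2B controls, between 18.1 and 21.6 in those of 22Rv1 and 0.528 ± 0.203 in DU145, where HOXB13 had 1 read over 6 libraries. Of the 3 basal markers, in the 1 to 3 that each table holds, the summed level was at most 1.76 CPM in any library. The 7 luminal markers summed to between 4644 and 4710 CPM in C4-2B controls and 4022 and 4200 in knockdowns, to between 2236 and 2355 and 1724 and 1737 in 22Rv1, and to between 1976 and 2134 and 921 and 1002 in DU145, lower after knockdown in each line. In DU145 this sum is mostly 2 keratins, KRT8 and KRT18, with 161013 and 128643 reads over 6 libraries. NDRG1 had 4595 there, and KLK3, TMPRSS2, FOLH1 and HOXB13 had 96, 40, 106 and 1. The part of the lower luminal sums in the results was not tested. A line is also a table, a batch label and, for DU145, a medium, and these cannot be told apart in any comparison of lines. Knockdown and control of a line share their table and batch label. The labels do not say that the 3 libraries of a group are separate cultures, so the p-values measure the spread between these libraries, which may be technical.

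Knockdown of EMD changed the androgen enzymes differently in the 3 lines. CYP11A1 fell in both lines that express it, SRD5A1 and AKR1C3 fell in all 3, and of the glucuronidating enzymes UGT2B17 rose in C4-2B and UGT2B15 in 22Rv1. In C4-2B 9 of the 10 genes had enough reads to be tested, and 1 rose, 5 fell and 3 did not pass (edgeR quasi-likelihood test, with Benjamini-Hochberg adjustment across every tested gene of the line and a threshold of 0.05). There 41.7% of all tested genes were called, 19.4% as rises and 22.3% as falls. In 22Rv1 8 were tested, and 3 rose and 5 fell, against 67.8% of all genes, 33.5% rises and 34.3% falls. In DU145 6 were tested, and 1 rose, 2 fell and 3 did not pass, against 47.6% of all genes, 24.1% rises and 23.6% falls. With so many genes called, the number of enzymes called says little by itself, and sizes and libraries are given below. The median log2 fold change of the tested enzymes was -0.19, -0.24 and 0.04 in C4-2B, 22Rv1 and DU145, against 0.01, -0.00381 and 0.01 over all genes. In C4-2B, scaling by library totals instead of TMM moved the rises among all calls from 46.6% to 57.0%. It moved no tested enzyme to the other direction there. Because these are bulk cultures, fewer cells of a type and less RNA per cell cannot be told apart.

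**Figure D1:**
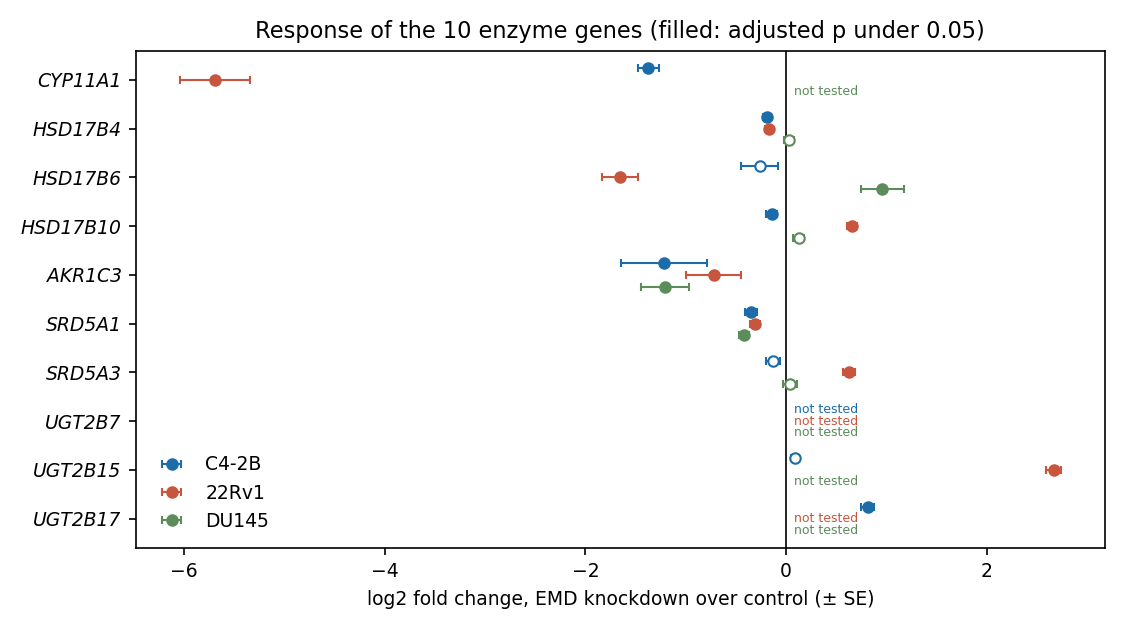
Log2 fold change of knockdown over control (x axis, bars ± SE) of the 10 enzyme genes in C4-2B, 22Rv1 and DU145, with filled points past an adjusted p of 0.05. CYP11A1 at -5.69 and UGT2B15 at 2.67, both in 22Rv1, lie farthest out, and SRD5A1 lies between -0.42 and -0.31 in all 3 lines.

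The control levels show where each enzyme can be read at all. Levels in CPM were scaled within each line alone, while log2 differences between lines come from the fit of all 18 libraries. The 2 need not match in size. CYP11A1, UGT2B15 and UGT2B17 were highest in C4-2B, lower in 22Rv1 and close to absent in DU145. UGT2B15 was at 192 ± 5.48 CPM in C4-2B, 15.7 ± 2.06 in 22Rv1 and 0.387 ± 0.163 in DU145. C4-2B exceeded 22Rv1 by 3.61 ± 0.06 and 22Rv1 exceeded DU145 by 5.32 ± 0.15 on the log2 scale (edgeR over all 18 libraries, adjusted p = 2.02e-31 and 2.8e-26). In such comparisons of control levels 78.4% of all genes differed between C4-2B and 22Rv1, 83.1% between C4-2B and DU145 and 83.8% between 22Rv1 and DU145, so a difference between lines is the rule. UGT2B17 was at 40.2 ± 1.80 CPM in C4-2B and 0.370 ± 0.125 in 22Rv1 (6.70 ± 0.16, adjusted p = 1.88e-26), while the 3 DU145 controls held 3 reads together and the 3 DU145 knockdowns none. A count of 0 over those 98952086 reads allows a level of up to 0.0303 CPM, counting error only. CYP11A1 was at 34.6 ± 2.31 CPM in C4-2B, 7.47 ± 0.27 in 22Rv1 (2.20 ± 0.14, adjusted p = 1.63e-15) and 0.0914 ± 0.0303 in DU145.

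HSD17B4, HSD17B10 and SRD5A3 followed the same order of lines with smaller steps. HSD17B4 was at 239 ± 5.03, 167 ± 5.97 and 83.4 ± 1.40 CPM in C4-2B, 22Rv1 and DU145. HSD17B10 was at 119 ± 2.52, 83.4 ± 5.26 and 37.0 ± 2.07 CPM, and SRD5A3 at 41.0 ± 1.31, 31.4 ± 1.04 and 18.6 ± 1.19 CPM. For these 3 genes every step from line to line passed the test, with the smallest, 0.37 ± 0.06, between C4-2B and 22Rv1 for SRD5A3 (adjusted p = 3.05e-06). SRD5A1 varied little between lines, at 82.6 ± 6.07, 79.2 ± 3.48 and 68.0 ± 1.53 CPM. On the scale of the fit of all libraries, which was tested, its means were 81.5, 79.1 and 73.5 CPM. Of its steps the one between C4-2B and DU145 passed (0.15 ± 0.05, adjusted p = 0.0083), but not without C4-2B control 3 (adjusted p = 0.102; range over leaving out each control library 0.00108 to 0.102), and those between neighbours did not (0.04 ± 0.05, adjusted p = 0.439, and 0.11 ± 0.05, adjusted p = 0.0535). Scaling by library totals moves the median of all genes by over 0.1 in the comparisons with DU145, from 0.02 to 0.20 for 22Rv1 and from -0.01 to 0.14 for C4-2B. With library totals SRD5A1 in 22Rv1 lay above DU145 by 0.29 (adjusted p = 4.64e-06).

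AKR1C3 and HSD17B6 were low throughout. AKR1C3 was highest in 22Rv1, at 3.30 ± 0.34 CPM, against 1.78 ± 0.37 in C4-2B (adjusted p = 0.00586) and 2.28 ± 0.31 in DU145 (adjusted p = 0.158). HSD17B6 was at 7.60 ± 0.69 CPM in 22Rv1 and 6.67 ± 1.39 in C4-2B, which did not differ past the threshold (adjusted p = 0.258), and at 1.26 ± 0.23 in DU145, below both. UGT2B7, a broad steroid and drug glucuronosyltransferase, had between 1 and 12 reads in each control library and was tested within no line.

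Per kilobase of transcript, HSD17B10 led in the controls of every line, at 124, 86.9 and 38.6 CPM per kb in C4-2B, 22Rv1 and DU145. In C4-2B it was followed by UGT2B15 at 92.2 and HSD17B4 at 82.9, whose libraries did not overlap, and then by UGT2B17 at 19.4 and CYP11A1 at 17.9, whose libraries did. SRD5A1 (11.6), SRD5A3 (9.80), HSD17B6 (3.81), AKR1C3 (0.985) and UGT2B7 (0.181) came last. In 22Rv1 the order after HSD17B10 was HSD17B4 at 58.1, SRD5A1 at 11.1, and UGT2B15 at 7.56, whose libraries overlapped those of SRD5A3 (7.32 to 7.78). HSD17B6 at 4.34 and CYP11A1 at 3.86 overlapped too, and AKR1C3 was at 1.82. In DU145 HSD17B4 at 28.5 to 29.5, SRD5A1 at 9.54, SRD5A3 at 4.44, AKR1C3 at 1.26 and HSD17B6 at 0.717 followed, with no overlap between neighbours among these. Lengths are those of 1 coding transcript a gene in GENCODE v29, which may not be the annotation the reads were counted on.

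**Figure D2:**
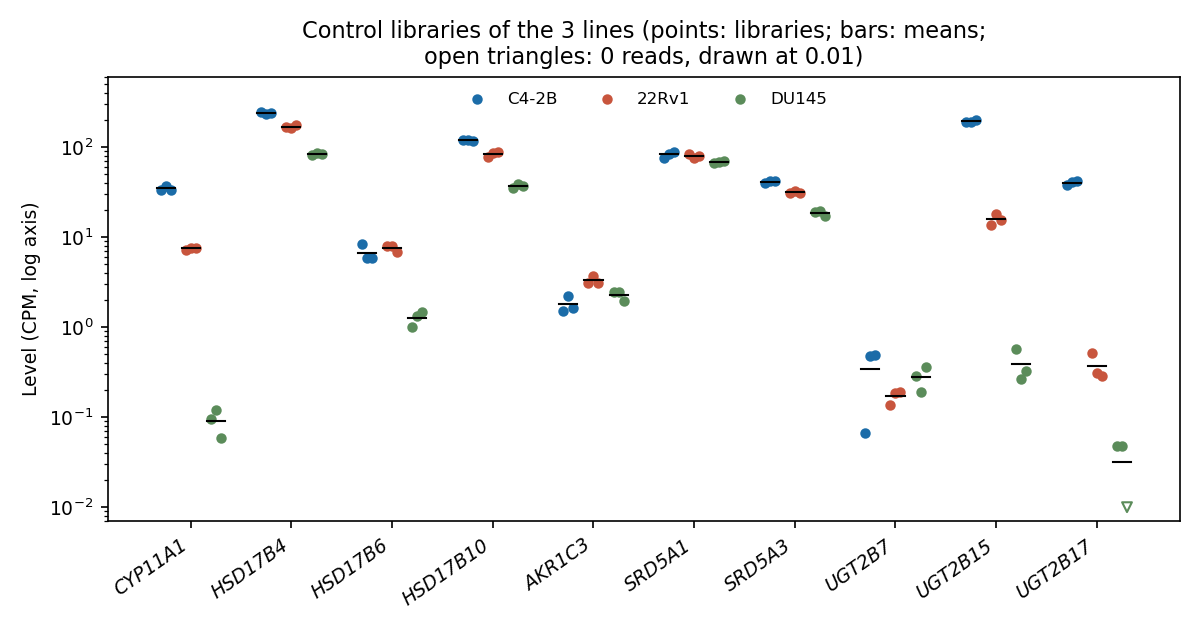
Level of the 10 enzyme genes (CPM scaled within each line, log axis) in the 3 control libraries of each line, with bars at the means and an open triangle for the library with 0 reads. UGT2B15, UGT2B17 and CYP11A1 descend from C4-2B to 22Rv1 to DU145, while SRD5A1 stays between 66.8 and 88.0 CPM in all 9 libraries.

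CYP11A1, the mitochondrial enzyme of the entry step of steroid synthesis, lost most of its RNA in both lines that express it. In C4-2B the controls were at 33.0, 37.3 and 33.6 CPM and the knockdowns at 14.6, 10.9 and 14.8. Every knockdown library lay below every control, as for 50.5% of all tested genes in that line in either direction. The log2 fold change was -1.37 ± 0.10, a 2.59-fold fall (edgeR adjusted p = 7.05e-11), and the call stood in all 12 alternatives of processing. In 22Rv1 the controls were at 7.15, 7.62 and 7.63 CPM, from 209, 122 and 242 reads, and the knockdowns at 0.0405, 0.367 and 0.0589 CPM, from 1, 6 and 1 reads. The groups lay far apart, and the fitted change was -5.69 ± 0.35 (51.7-fold, adjusted p = 1.49e-11). Its size depends on 8 reads: it was -7.13 without knockdown 2 and -5.12 without knockdown 1. The gene could pass the read filter in 22Rv1 through its controls alone.

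The response of C4-2B exceeded that of 22Rv1 by 4.37 ± 0.40 on the log2 scale, that is, the fall was the steeper in 22Rv1 (adjusted p = 3.32e-11; 56.1% of all genes differ in that comparison). EMD itself was reduced less in 22Rv1 than in C4-2B (difference -1.29 ± 0.14, adjusted p = 9.78e-09). Genes of like level in 22Rv1 shifted down as well. Of 2600 genes within 2-fold of the mean level of CYP11A1, 46.6% fell and 15.6% rose, with a median of -0.39. NR5A1, which encodes steroidogenic factor 1, a known activator of CYP11A1 in the adrenal gland and gonads, had 18, 7 and 10 reads in the 22Rv1 controls and 0, 2 and 0 in the knockdowns, too few to be tested. The adrenal and gonadal marker list, of which 3 of 4 genes are in the 22Rv1 table (CYP17A1 is not), summed to between 0.500 and 0.856 CPM in the controls and between 0.00 and 0.122 in the knockdowns, and 0 of its genes could be tested. Its part in the fall of CYP11A1 was not tested. In C4-2B, where CYP11A1 is higher, 2 of the 4 genes are in the table, CYP17A1 and CYP21A2, with NR5A1 and INHA absent. They summed to at most 0.529 CPM in the controls and 0.876 in the knockdowns.

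CYP11A1 (ENSG00000140459) lies on chromosome 15 from 74337759 to 74367740 on the minus strand of GRCh38. The 250 bases before its start site are shown because the core TCAAGG, to which steroidogenic factor 1 binds, is found in them. The reading is from RefSeq, build GRCh38.p14, chr15:74367647-74367896, minus strand, 5′ to 3′, and capitals mark the match, which reads on the opposite strand and begins at position -44 from the start.
CYP11A1: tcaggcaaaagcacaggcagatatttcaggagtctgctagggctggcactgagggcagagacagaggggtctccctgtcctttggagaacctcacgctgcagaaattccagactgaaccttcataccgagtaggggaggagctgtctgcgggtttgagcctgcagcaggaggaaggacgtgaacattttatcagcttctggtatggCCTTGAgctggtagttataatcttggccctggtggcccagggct
Both strands of 35116 RefSeq promoters, each 300 bases long and reaching 50 bases past the start, were searched, and 12.3% hold this core. A match is a run of letters and no evidence of binding. Of the 8 enzymes with an entry there, SRD5A1 and UGT2B7 also hold it, and UGT2B17 and HSD17B6 have no entry.

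**Figure D3:**
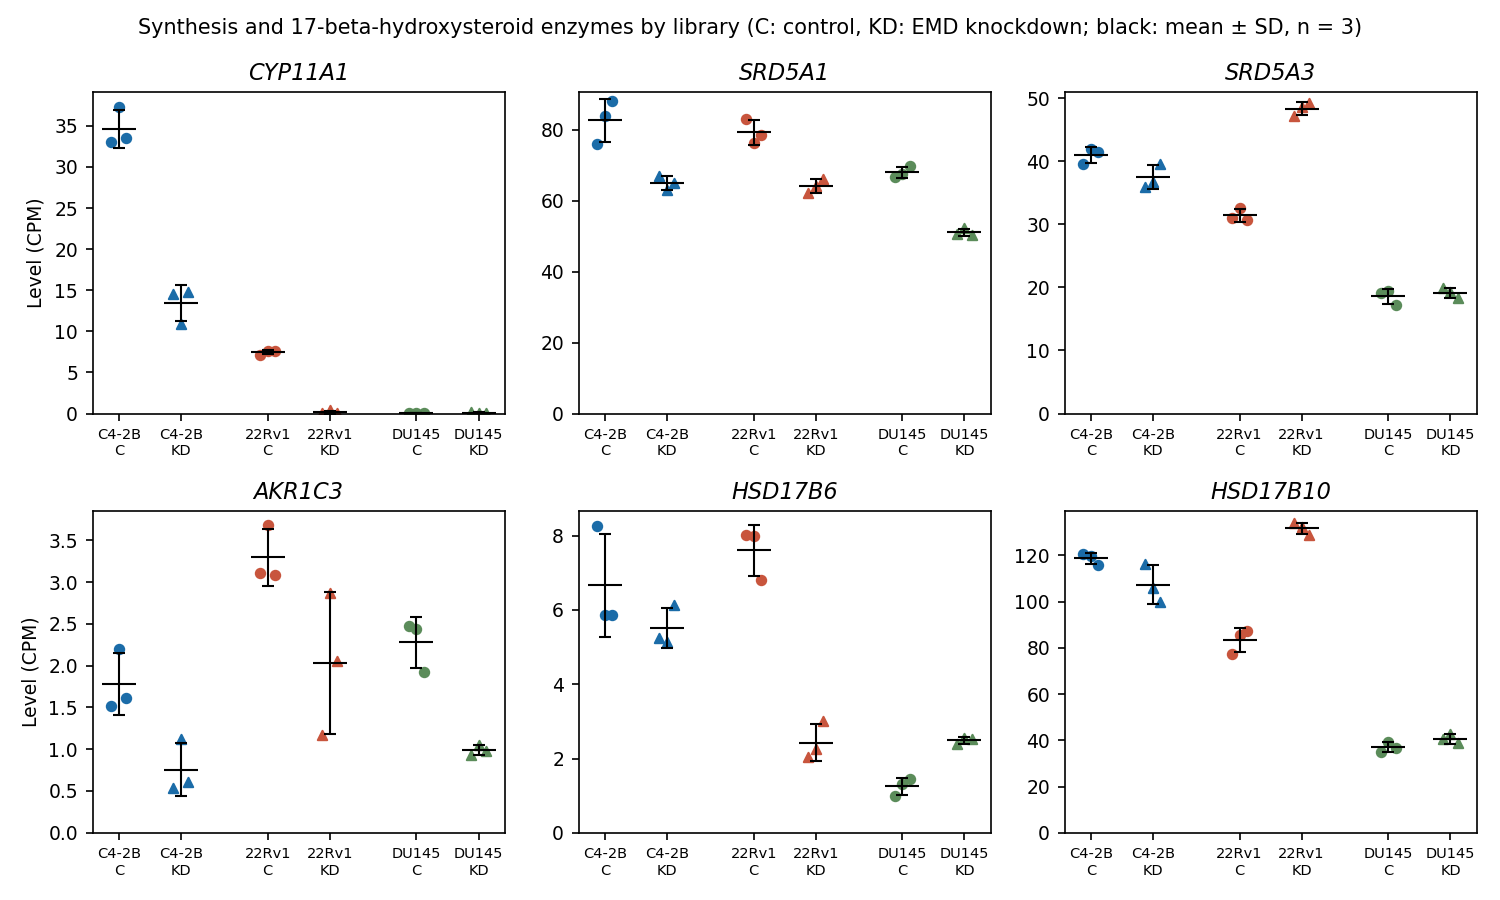
Level (CPM, linear axis from 0) of CYP11A1, SRD5A1, SRD5A3, AKR1C3, HSD17B6 and HSD17B10 in each control (C, circles) and knockdown (KD, triangles) library, with mean ± SD in black. SRD5A1 and AKR1C3 are lower in the knockdowns of all 3 lines, and HSD17B6 moves down in 22Rv1 and up in DU145.

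Among the 17-beta-hydroxysteroid dehydrogenases, HSD17B4 changed little. This peroxisomal enzyme oxidises 17-beta-hydroxysteroids and takes part in the oxidation of very long fatty acids, and its gene lies on chromosome 5 from 119452443 to 119637199, plus strand. It went from 239 ± 5.03 to 210 ± 5.19 CPM in C4-2B (-0.19 ± 0.04, adjusted p = 0.000383) and from 167 ± 5.97 to 149 ± 5.08 in 22Rv1 (-0.17 ± 0.04, adjusted p = 0.00124), without overlap of the libraries in either line. Of the 2820 genes of like level (within 2-fold) in 22Rv1, 23.4% fell and 55.5% rose. In DU145 it was at 83.4 ± 1.40 and 85.5 ± 3.39 CPM (adjusted p = 0.626). The difference of responses passed between C4-2B and DU145 (-0.23 ± 0.06, adjusted p = 0.00123, against 45.7% of all genes) and between 22Rv1 and DU145 (-0.26 ± 0.06, adjusted p = 0.000295, against 55.6%).

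HSD17B10, a mitochondrial dehydrogenase that also serves isoleucine breakdown and the processing of mitochondrial transfer RNAs, rose in 22Rv1. It lies on the X chromosome, from 53431258 to 53434373, minus strand. Its controls in 22Rv1 were at 77.4, 85.3 and 87.4 CPM and its knockdowns at 134, 132 and 129. The groups were clearly apart (0.66 ± 0.05, adjusted p = 2.00e-10), in a line where 71% of all tested genes did not overlap between the arms. In C4-2B the controls were at 121, 120 and 116 CPM and the knockdowns at 116, 106 and 99.8, which overlap. That change of -0.14 ± 0.05 (adjusted p = 0.0275) was lost in 6 of 12 alternatives, with library totals, with DESeq2 and without control 1, control 2, knockdown 2 or knockdown 3, where the adjusted p reached 0.177. In DU145 the difference did not pass (37.0 ± 2.07 and 40.6 ± 2.01 CPM, 0.13 ± 0.06, adjusted p = 0.0767), but passed in 6 of 12 alternatives (range 0.0042 to 0.436). In 22Rv1 54.4% of the 4039 genes of like level (within 2-fold) rose and 24.4% fell, with a median of 0.15. The response of 22Rv1 was the highest of the 3. Subtracting it from that of C4-2B gave -0.76 ± 0.08 (adjusted p = 4.5e-10), and subtracting the DU145 response gave 0.47 ± 0.08 from 22Rv1 and -0.28 ± 0.08 from C4-2B (adjusted p = 5.74e-06 and 0.00411).

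AKR1C3, which reduces androstenedione to testosterone, was lower in the knockdowns of all 3 lines, from low levels. In DU145 the controls were at 2.48, 2.44 and 1.93 CPM and the knockdowns at 0.934, 1.05 and 0.980. The groups were apart (-1.20 ± 0.24, adjusted p = 0.000114). This call stood in all 13 alternatives, among them the sum with AKR1C1 and AKR1C2, given below. In C4-2B the controls were at 1.52, 2.20 and 1.62 CPM and the knockdowns at 0.539, 1.12 and 0.608, without overlap (-1.22 ± 0.43, adjusted p = 0.0248). With 105 control and 38 knockdown reads in all, it did not survive the removal of any of control 2, control 3, knockdown 1 and knockdown 3 (adjusted p over leaving out each library 0.0169 to 0.114). In 22Rv1 the controls were at 3.11, 3.69 and 3.09 CPM and the knockdowns at 1.18, 2.88 and 2.06, of which the second came near the controls (-0.72 ± 0.27, adjusted p = 0.024). That call was lost without control 2 or knockdown 1, where it was -0.64 and -0.41 (adjusted p over leaving out each library 0.00377 to 0.158). Of 2532 genes of like level in 22Rv1, 43.8% fell and 13.7% rose, with a median of -0.40. The responses of the 3 lines did not differ past the threshold (adjusted p = 0.425, 0.978 and 0.398).

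AKR1C3 (ENSG00000196139, chromosome 10, 5035354 to 5107686, plus strand) stands beside AKR1C1 and AKR1C2, which reduce dihydrotestosterone to weak metabolites. Their coding sequences are 91.4% and 91.0% identical to its own, and AKR1C1 and AKR1C2 are 98.0% identical to each other. Of the 100-base windows of the AKR1C3 transcript, 4.98% also occur in another gene, against 32.9% for AKR1C2, so reads can be split between these genes in the counting. The stretch below, coding bases 85 to 174 in GENCODE v29, has capitals at the 17 of 90 positions where the 3 differ. It was picked as the stretch of 90 bases, unbroken in the genome, with the most such positions, and is not a typical one. It lies at chr10:5096410-5096499 (plus strand) in AKR1C3, chr10:4965914-4966003 (plus) in AKR1C1 and chr10:5001592-5001681 (minus) in AKR1C2.
AKR1C3: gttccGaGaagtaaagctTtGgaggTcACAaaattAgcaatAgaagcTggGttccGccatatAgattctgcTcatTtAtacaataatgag
AKR1C1: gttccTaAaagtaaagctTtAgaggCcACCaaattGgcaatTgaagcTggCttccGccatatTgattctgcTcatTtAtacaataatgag
AKR1C2: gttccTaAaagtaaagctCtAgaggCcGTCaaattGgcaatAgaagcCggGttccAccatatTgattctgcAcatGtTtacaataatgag
AKR1C2 fell in C4-2B from 2.65 ± 0.44 to 0.811 ± 0.083 CPM (-1.69 ± 0.37, adjusted p = 0.000573) and in 22Rv1 from 9.80 ± 0.39 to 4.77 ± 0.26 (-1.03 ± 0.13, adjusted p = 6.97e-07). AKR1C1 fell in 22Rv1 from 2.51 ± 0.61 to 1.11 ± 0.07 CPM (-1.18 ± 0.28, adjusted p = 0.000982). In C4-2B it went from 1.49 ± 0.32 to 0.487 ± 0.517 CPM (-1.58 ± 0.58, adjusted p = 0.0317), a call lost in 4 of 12 alternatives (adjusted p up to 0.146). It ran from -1.07 without knockdown 3 to -2.91 without knockdown 2. In DU145 AKR1C1 was at 0.534 ± 0.201 and 0.514 ± 0.0545 CPM (adjusted p = 0.999), and AKR1C2 was not tested. With the reads of the 3 genes summed the log2 fold change was -1.51 in C4-2B, -0.98 in 22Rv1 and -0.78 in DU145, each past the threshold (adjusted p = 3.09e-05, 7.07e-08 and 0.00135).

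SRD5A1, the 5-alpha reductase that prevails in castration-resistant disease, was lower after knockdown in every line. It lies on chromosome 5, from 6633343 to 6674386, plus strand. Its controls in C4-2B were at 76.0, 83.8 and 88.0 CPM and its knockdowns at 67.0, 62.9 and 64.9. In 22Rv1 they were at 83.0, 76.2 and 78.4 against 62.0, 64.1 and 66.2 CPM, and in DU145 at 66.8, 67.6 and 69.7 against 50.6, 52.2 and 50.4. In each line all knockdowns lay below all controls, in DU145 as for 54.8% of its tested genes. The log2 fold change was -0.35 ± 0.06 in C4-2B, -0.31 ± 0.05 in 22Rv1 and -0.41 ± 0.05 in DU145 (adjusted p = 2.58e-05, 1.97e-05 and 7.08e-08), that is, 1.28-, 1.24- and 1.33-fold falls. The calls stood in all 12 alternatives in each line. In 22Rv1 51.3% of the 4993 genes of like level rose and 26.6% fell. The 3 differences between these responses did not pass, at 0.01 ± 0.08 for C4-2B minus 22Rv1, 0.05 ± 0.08 for C4-2B minus DU145 and 0.04 ± 0.07 for 22Rv1 minus DU145 (adjusted p = 0.96, 0.641 and 0.649).

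SRD5A3, which is named for the same activity and is known as the polyprenol reductase of protein N-glycosylation, rose in 22Rv1. It lies on chromosome 4, from 55346109 to 55373096, plus strand, far from the UGT2B genes. In 22Rv1 the controls were at 31.0, 32.6 and 30.7 CPM and the knockdowns at 47.3, 48.6 and 49.3, a clear rise of 0.63 ± 0.06 (1.54-fold, adjusted p = 1.13e-08). Of the 5422 genes of like level there, 46.1% rose and 29.7% fell, with a median of 0.11. In C4-2B it was at 41.0 ± 1.31 and 37.5 ± 1.90 CPM (adjusted p = 0.141) and in DU145 at 18.6 ± 1.19 and 19.1 ± 0.80 (adjusted p = 0.658), with overlap in both. The C4-2B response minus the 22Rv1 response was -0.71 ± 0.09, and the 22Rv1 response minus the DU145 response 0.52 ± 0.09 (adjusted p = 3.73e-08 and 1.03e-05). SRD5A2, the main 5-alpha reductase of normal prostate, had 5 reads over the C4-2B controls and 4 over those of DU145, and is not in the 22Rv1 table.

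HSD17B6, the oxidative enzyme that can restore dihydrotestosterone, fell in 22Rv1 and rose in DU145. It lies on chromosome 12, from 56752161 to 56787790, plus strand. In 22Rv1 the controls were at 8.01, 8.00 and 6.81 CPM and the knockdowns at 2.03, 2.26 and 3.00 (-1.66 ± 0.18, a 3.15-fold fall, adjusted p = 7.17e-08). In DU145 the controls were at 1.00, 1.31 and 1.45 CPM and the knockdowns at 2.39, 2.56 and 2.52, a rise of 0.96 ± 0.22 (1.95-fold, adjusted p = 0.000488). The libraries of the 2 arms were apart in both lines. In C4-2B they overlapped, at 8.27, 5.87 and 5.86 CPM in controls and 5.26, 5.14 and 6.14 in knockdowns (adjusted p = 0.278). All 3 differences between the responses passed: 22Rv1 minus DU145 -2.67 ± 0.29 (adjusted p = 1.03e-09), C4-2B minus DU145 -1.23 ± 0.28 (adjusted p = 0.000411) and C4-2B minus 22Rv1 1.44 ± 0.27 (adjusted p = 2.6e-05). In 22Rv1 46.8% of the 2723 genes of like level fell and 17.8% rose, with a median of -0.33, and in DU145 16.9% fell and 17.1% rose.

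Of the enzymes that glucuronidate androgens, UGT2B15 rose in 22Rv1 and UGT2B17 in C4-2B. UGT2B15 in 22Rv1 was at 13.7, 17.8 and 15.6 CPM in controls and 96.0, 102 and 97.5 in knockdowns. Every knockdown stood far above every control, with a rise of 2.67 ± 0.07 on the log2 scale (6.35-fold, adjusted p = 6.38e-17). Of the 5305 genes of like level in 22Rv1, 49.8% rose and 27.1% fell, with a median of 0.13. In C4-2B, where it began at 187, 190 and 198 CPM, it was at 210, 195 and 206 in the knockdowns, which overlap (0.09 ± 0.04, adjusted p = 0.0985). That difference passed with library totals, with the reads of UGT2B17 added and without knockdown 2 (adjusted p = 0.00877, 3.42e-05 and 0.0470, and up to 0.301 over the 13 alternatives). Between the 2 lines the responses differed, with C4-2B minus 22Rv1 at -2.53 ± 0.08 (adjusted p = 1.34e-22). After knockdown 22Rv1 still held less UGT2B15 RNA than C4-2B, 98.4 ± 3.00 against 204 ± 7.65 CPM. In DU145 UGT2B15 had 12, 11 and 11 reads in the controls and 7, 5 and 8 in the knockdowns, which was too low to test within that line.

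UGT2B17 rose in C4-2B. The controls were at 38.2, 40.6 and 41.8 CPM and the knockdowns at 73.1, 64.8 and 74.6, without overlap (0.81 ± 0.07, 1.76-fold, adjusted p = 2.05e-10). This call stood in all 13 alternatives, though with the reads of UGT2B15 added the change was 0.24. In 22Rv1 UGT2B17 was at 0.513, 0.312 and 0.284 CPM and 0.568, 0.306 and 0.353, which overlap and were not tested within that line. In the fit of all libraries the responses of UGT2B17 in C4-2B and 22Rv1 were not told apart (0.67 ± 0.40, adjusted p = 0.151), with few reads in 22Rv1. Subtracting the DU145 response from the C4-2B one gave 3.70 ± 1.43 (adjusted p = 0.0341), a call lost in 5 of 16 alternatives (0.0141 to 0.168) that rests on 3 reads in the DU145 controls and 0 in the knockdowns. UGT2B7 had 22 reads over the controls and 25 over the knockdowns in C4-2B, and 26 and 23 in DU145, overlapping in both. In 22Rv1 it had 4, 3 and 6 reads in the controls and 15, 7 and 7 in the knockdowns, which do not overlap as levels, at 0.137 to 0.189 and 0.412 to 0.608 CPM, but are below the filter.

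UGT2B15 (ENSG00000196620, chromosome 4, 68646630 to 68670628, minus strand) and UGT2B17 (ENSG00000197888, chromosome 4, 68537184 to 68568527, minus strand) are 96.5% identical over 1590 aligned coding bases. Of the 1978 windows of 100 bases in each transcript, 252, or 12.7%, are shared between them. The next stretch shows coding bases 356 to 445, where the pair differs at 11 of 90 positions, in capitals. It too was picked for having the most differing positions. It lies at chr4:68670174-68670263 and chr4:68568040-68568129, both on the minus strand.
UGT2B15: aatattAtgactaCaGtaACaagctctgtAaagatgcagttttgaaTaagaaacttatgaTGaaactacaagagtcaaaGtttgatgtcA
UGT2B17: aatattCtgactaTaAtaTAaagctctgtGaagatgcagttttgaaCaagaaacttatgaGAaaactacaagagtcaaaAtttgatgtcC
Of the reads given to either gene in C4-2B, UGT2B17 took 17.0%, 17.6% and 17.4% in the controls and 25.9%, 25.0% and 26.6% in the knockdowns. The 2 sets are apart (exact permutation test, 2-sided p = 0.1, the smallest that 3 against 3 allows). In 22Rv1 its share was at most 3.61% in controls and 0.588% in knockdowns. With the reads of both genes summed, the change in C4-2B was 0.24 (adjusted p = 3.42e-05) and in 22Rv1 2.64. How the counting divided shared reads was not tested.

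The 7 UGT2B genes lie along 989 kb of chromosome 4, and they did not all move one way. In 22Rv1 UGT2B10, the gene next to UGT2B15, which conjugates nicotine and other amines, also rose, from 5.07, 3.69 and 4.95 CPM in controls to 24.4, 25.4 and 26.2 in knockdowns (2.44 ± 0.11, 5.41-fold, adjusted p = 1.95e-13). The 3 tested genes farther along fell in 22Rv1. UGT2B11, whose activity is little known, went from 75.6 ± 4.36 to 48.2 ± 3.15 CPM (-0.64 ± 0.06). UGT2B28, which conjugates androgens and bile acids, went from 24.4 ± 3.27 to 6.28 ± 0.73 CPM (-1.96 ± 0.12). UGT2B4, a bile acid enzyme, went from 7.20 ± 0.535 to 4.64 ± 0.52 CPM (-0.62 ± 0.15; adjusted p = 6.29e-09, 1.28e-11 and 0.001).

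In C4-2B the pattern was another one. UGT2B17 at the one end rose, UGT2B10 fell from 7.10 ± 0.75 to 4.40 ± 0.84 CPM (-0.70 ± 0.19, adjusted p = 0.00452) and UGT2B28 from 34.9 ± 0.99 to 17.6 ± 1.295 CPM (-0.98 ± 0.09, adjusted p = 8.17e-10). UGT2B11 was at 131 ± 5.83 and 124 ± 6.34 CPM (adjusted p = 0.209) and UGT2B4 at 0.631 ± 0.129 and 0.938 ± 0.410 (adjusted p = 0.375). C4-2B minus 22Rv1, the response of UGT2B10 was -3.09 ± 0.25 (adjusted p = 4.41e-12). UGT2B28 fell in both lines, and by more in 22Rv1 (C4-2B minus 22Rv1 1.02 ± 0.16, adjusted p = 2.38e-06). UGT2B11 and UGT2B28 are 97.0% identical in coding sequence, so reads could be split between them too. In DU145 all 7 genes together gave at most 1.62 CPM in a library. The order of the genes by position was set out after their values were seen.

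**Figure D4:**
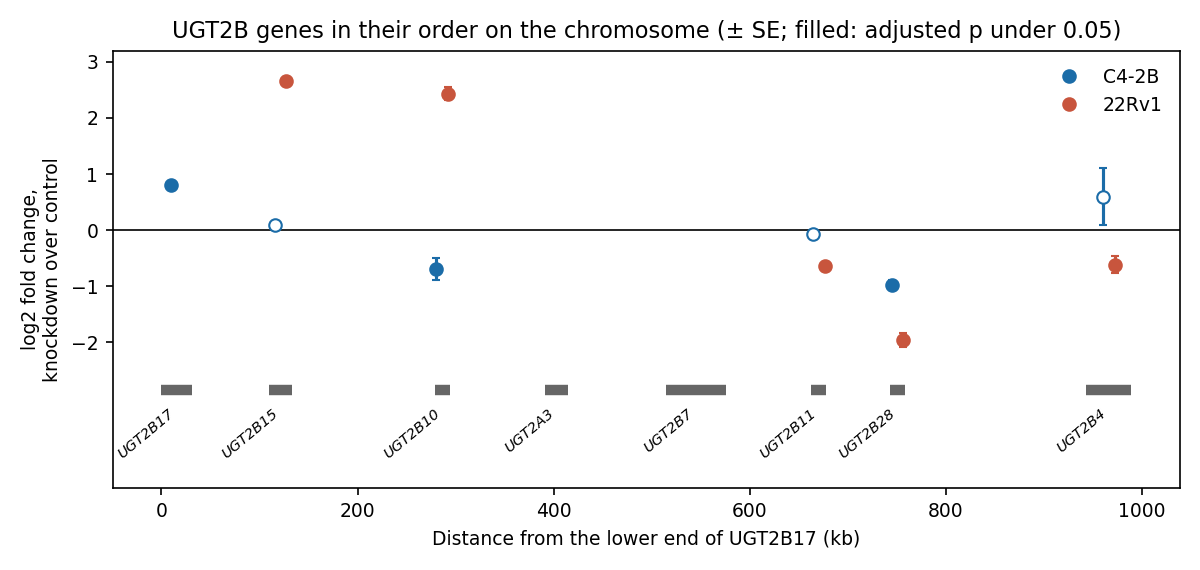
Log2 fold change of knockdown over control (y axis, bars ± SE) of the tested UGT2B genes in C4-2B and 22Rv1 by distance from the lower end of UGT2B17 (kb), with grey bars for the genes and filled points past an adjusted p of 0.05. UGT2B15 and UGT2B10 stand at 2.67 and 2.44 in 22Rv1, and UGT2B28 lies below 0 in both lines.

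The balance of the family changed accordingly in 22Rv1. All 7 UGT2B genes summed to 121, 138 and 125 CPM in the controls and 181, 184 and 186 in the knockdowns. UGT2B15 made up 12.2% ± 0.81 of that sum before and 53.6% ± 1.61 after, and UGT2B11 59.1% ± 1.29 and 26.2% ± 1.64 (SD, n = 3; exact permutation 2-sided p = 0.1 for each, the smallest possible). These are shares of reads, without division by length. In C4-2B the sum was 406 ± 5.22 and 422 ± 19.2 CPM, overlapping (exact permutation p = 0.3).

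**Figure D5:**
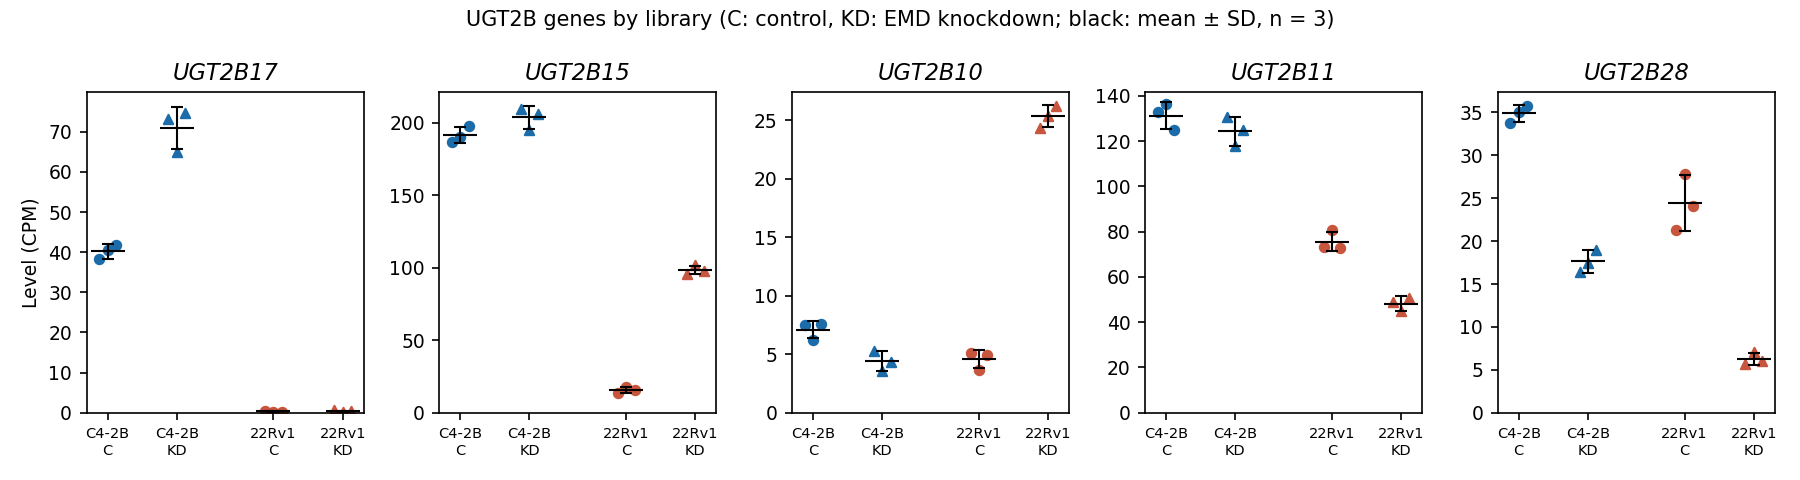
Level (CPM, linear axis from 0, each panel with its own scale) of UGT2B17, UGT2B15, UGT2B10, UGT2B11 and UGT2B28 in the control (C, circles) and knockdown (KD, triangles) libraries of C4-2B and 22Rv1, with mean ± SD in black. The rises of UGT2B15 and UGT2B10 are seen in 22Rv1, that of UGT2B17 in C4-2B, and UGT2B28 is lower in the knockdowns of both.

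UGT2B genes are strongly expressed in liver, so liver markers were read beside them. The liver gene ALB moved in 22Rv1 as UGT2B15 and UGT2B10 did, and opposite to UGT2B11, UGT2B28 and UGT2B4. ALB, which encodes albumin, rose in 22Rv1 from 13.4, 13.6 and 12.7 CPM to 79.7, 75.8 and 79.2 (2.57 ± 0.06, adjusted p = 1.1e-17). Of the 4 liver markers 2 are in the 22Rv1 table, ALB and TTR, with 10 reads for TTR in all 6 libraries, and APOA2 and SERPINA1 absent. Their sum went from between 12.9 and 13.6 CPM to between 75.8 and 79.7. In C4-2B, where UGT2B17 rose, 3 of the 4 are in the table and their sum went from between 26.9 and 31.4 to between 7.21 and 8.56 CPM, with TTR, which encodes transthyretin, at -2.32 ± 0.12. In DU145, where the UGT2B genes are near absent, all 4 are in the table and their sum went from between 20.02 and 21.9 to between 0.526 and 0.769 CPM. That sum is mostly SERPINA1, with 2027 reads in all 6 libraries, against 26 for ALB, 34 for TTR and 2 for APOA2. Only 1 of the 4 was tested in DU145. The part of liver genes in these changes was not tested.

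The promoters of UGT2B15, UGT2B10 and UGT2B11 are shown because the first 2 rose together in 22Rv1 while the last fell. Each is the 250 bases before the start site from RefSeq, build GRCh38.p14, 5′ to 3′: chr4:68670653-68670902 (minus strand), chr4:68815744-68815993 (plus) and chr4:69214749-69214998 (minus). Capitals mark matches to 4 motifs searched on both strands: AGAACA, the core bound by androgen and glucocorticoid receptors (in 14.8% of 35116 promoters), the forkhead motif TGTTTAC (3.42%), TCAAGG (12.3%) and TGACNNNGC, the core of the antioxidant response element (13.3%).
UGT2B15: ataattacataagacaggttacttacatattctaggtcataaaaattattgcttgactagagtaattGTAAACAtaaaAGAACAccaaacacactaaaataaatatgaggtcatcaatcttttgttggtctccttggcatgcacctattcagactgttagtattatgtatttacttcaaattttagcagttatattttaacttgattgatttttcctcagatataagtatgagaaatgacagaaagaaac
UGT2B10: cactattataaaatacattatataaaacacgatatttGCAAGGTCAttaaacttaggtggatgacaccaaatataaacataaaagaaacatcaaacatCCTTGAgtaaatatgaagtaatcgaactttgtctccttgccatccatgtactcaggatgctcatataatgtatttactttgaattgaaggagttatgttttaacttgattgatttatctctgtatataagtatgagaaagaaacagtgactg
UGT2B11: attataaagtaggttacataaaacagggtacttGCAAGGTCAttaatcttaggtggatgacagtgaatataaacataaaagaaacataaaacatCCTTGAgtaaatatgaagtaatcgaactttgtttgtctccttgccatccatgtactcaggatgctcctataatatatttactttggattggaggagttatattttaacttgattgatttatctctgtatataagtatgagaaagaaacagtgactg
UGT2B15 holds AGAACA at position -172 from the start and TGTTTAC, on the opposite strand, at -183. UGT2B10 and UGT2B11 hold neither, and share TCAAGG and TGACNNNGC, each on the opposite strand. These begin at -152 and -213 in UGT2B10 and at -156 and -217 in UGT2B11, and do not overlap. Over 300 bases the promoters of UGT2B10 and UGT2B11 are 90.1% identical, those of UGT2B10 and UGT2B15 68.8%. Those of UGT2B11 and UGT2B15 are 70.5% identical. The 3 promoters were picked after the responses were seen, and the part of their sequence in these changes was not tested. No match of GTTAAT, bound by HNF1 and in 6.88% of promoters, was found in the 3 windows.

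Around these 10 enzymes, 53 further genes of steroid synthesis, conversion and disposal were counted. In C4-2B 35 of them were tested, and 9 rose and 13 fell, so that 62.9% were called against 41.7% of all tested genes. In 22Rv1 12 rose and 18 fell of 35 (85.7% against 67.8%), and in DU145 10 rose and 10 fell of 33 (60.6% against 47.6%). Their median log2 fold change was -0.08, -0.22 and 0.07. CYP17A1, which acts on the product of CYP11A1, had 16 reads over the C4-2B controls and 9 over those of DU145 and is not in the 22Rv1 table. HSD3B1, which makes androstenedione, fell in C4-2B from 1.32 ± 0.52 to 0.285 ± 0.089 CPM (-2.18 ± 0.55, adjusted p = 0.00246). It could pass the read filter there through its controls alone. Of the redox partners of CYP11A1, FDXR, its ferredoxin reductase, rose in C4-2B (0.67 ± 0.06) and fell in 22Rv1 (-0.26 ± 0.07), and FDX1, its ferredoxin, rose in 22Rv1 (0.32 ± 0.07; adjusted p = 2.68e-09, 0.00248 and 0.000645). FDX1 and FDXR were picked out after their values were seen.

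The list holds 9 other 17-beta-hydroxysteroid dehydrogenases. In C4-2B 5 rose and 1 fell of 7 tested (41.7% of all tested genes were called), in 22Rv1 1 rose and 3 fell of 6 (67.8%), and in DU145 2 rose and 2 fell of 7 (47.6%). HSD17B3, the enzyme of testosterone synthesis in the testis, rose in C4-2B from 0.151 ± 0.167 to 1.01 ± 0.20 CPM (2.81 ± 0.71, adjusted p = 0.0023), from 8 to 50 reads. It ran from 2.23 without control 2 to 3.79 without control 1. HSD17B3 could pass the read filter in C4-2B through its knockdowns alone. HSD17B11, which oxidises androstanediol, fell there from 26.9 ± 1.90 to 9.90 ± 1.21 CPM (-1.44 ± 0.11, adjusted p = 5.57e-11). HSD17B1, which makes oestradiol and has a close pseudogene copy, went up in C4-2B by 1.03 ± 0.32 (adjusted p = 0.0164), lost without control 3 or knockdown 1 (adjusted p over 12 alternatives 0.000488 to 0.0876). HSD17B14 went opposite ways. It rose in C4-2B from 0.733 ± 0.137 to 1.63 ± 0.25 CPM (1.15 ± 0.42, adjusted p = 0.0314), a call lost in 5 of 12 alternatives (adjusted p up to 0.132), and fell in 22Rv1 from 12.0 ± 0.975 to 3.11 ± 0.50 CPM (-1.93 ± 0.15, adjusted p = 4.15e-10). HSD17B8 fell in 22Rv1 (-1.06 ± 0.07, adjusted p = 3.81e-11).

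Of the other genes of 3-alpha reduction and oxidation, 5 of 5 tested fell in 22Rv1, where 34.3% of all tested genes fell. Among genes within 2-fold of the low level of HSD17B6 in 22Rv1, 46.8% fell. AKR1C1 and AKR1C2, between which reads can be split, are among the 5. In C4-2B 2 of 5 fell, against 22.3% of all, in DU145 1 of 3, against 23.6%, and 0 rose in the 3 lines. RDH5 and RDH16, retinol dehydrogenases that also oxidise 3-alpha-hydroxysteroids, fell in 22Rv1 (-1.91 ± 0.22 and -1.94 ± 0.50, adjusted p = 1.65e-07 and 0.00182). AKR1D1, the 5-beta reductase, fell in C4-2B from 3.09 ± 1.295 to 0.946 ± 0.503 CPM (-1.66 ± 0.40, adjusted p = 0.0014).

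The genes that supply glucuronidation changed in different directions by line. UGDH, which makes the glucuronic acid donor, was lower in C4-2B (-0.18 ± 0.05), higher in 22Rv1 (0.53 ± 0.04) and higher in DU145, from 249 ± 4.06 to 503 ± 24.1 CPM (1.01 ± 0.05; adjusted p = 0.00255, 3.45e-10 and 8.39e-16). SLC35D1, which carries the donor into the endoplasmic reticulum, rose in 22Rv1 from 10.5 ± 0.80 to 27.2 ± 1.02 CPM (1.39 ± 0.09, adjusted p = 3.17e-11) and fell in DU145 from 29.3 ± 1.35 to 25.0 ± 1.39 (-0.23 ± 0.06, adjusted p = 0.00234). UGP2, which makes the UDP-glucose that UGDH oxidises, fell in C4-2B (-0.27 ± 0.06), rose in 22Rv1 (0.18 ± 0.05) and fell in DU145 from 97.4 ± 1.83 to 65.7 ± 3.73 CPM (-0.57 ± 0.05; adjusted p = 0.000808, 0.00223 and 2.7e-10). So in 22Rv1 all 3 genes rose, where 33.5% of all tested genes rose. That share varied with level: 54.4% of genes within 2-fold of HSD17B10 rose in 22Rv1, and 17.8% of those within 2-fold of HSD17B6. It was not counted at the levels of UGDH, SLC35D1 and UGP2. In DU145 1 rose and 2 fell, where 24.1% of all tested genes rose and 23.6% fell. UGP2 was picked out after its values were seen.

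In the sulfation branch, STS, which frees steroids from sulfate, rose in 22Rv1 from 102 to 510 reads over the 3 libraries (2.73 ± 0.22, adjusted p = 8.83e-10). SULT2B1, which sulfates cholesterol and pregnenolone, fell there from 5.18 ± 0.52 to 0.845 ± 0.134 CPM (-2.58 ± 0.23, adjusted p = 4.92e-09), and PAPSS2, which makes the sulfate donor, by the same test (-1.34 ± 0.13, adjusted p = 2.16e-08). SULT2B1 rose in DU145 from 17 to 61 reads (1.77 ± 0.47, adjusted p = 0.00241). SULT1A1, a phenol sulfotransferase with close copies among which reads could be split, rose in C4-2B from 3.53 ± 0.70 to 10.7 ± 3.26 CPM (1.58 ± 0.21, adjusted p = 3.02e-06). CYP1B1, which hydroxylates oestrogens, fell in C4-2B (-1.89 ± 0.47) and CYP3A5, which hydroxylates testosterone, rose in 22Rv1 (1.39 ± 0.29; adjusted p = 0.00209 and 0.000259).

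Over all 18 libraries, the gene whose log2 level ran most like that of SRD5A1 among 17151 others was EMD itself (Pearson r = 0.907), followed by MAP1B (0.896). The libraries share lines, knockdown and depth, so this is a description. UGT2B15 ran closest to ANK3 (0.995) and CROT (0.994), UGT2B17 to MID1IP1 (0.995) and GABPB1-IT1 (0.994), and CYP11A1 to MESP1 (0.984) and KNDC1 (0.983). HSD17B4 ran closest to AZGP1 and KLHL9 (both 0.993), HSD17B10 to IPO13 and TMBIM4 (0.994 and 0.993), SRD5A3 to MAT2B and PAGR1 (both 0.982) and HSD17B6 to RCN3 (0.970) and EIF4B (0.965). The likeness was weaker for AKR1C3, with FES (0.890) and KIAA1211L (0.880), and for UGT2B7, with CALML3-AS1 (0.731) and UBE4B (0.706).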

How the data were processed

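RNA-seq was measured in 18 libraries, 3 control and 3 EMD knockdown in each of C4-2B, 22Rv1 and DU145, grouped by sample titles. The authors deposited RSEM expected counts per gene as whole numbers. Reads were aligned with STAR to GRCh38 and counted with RSEM 1.3.1, per the submitters' processing notes. The annotation release, the strandedness of the kit and the rounding are not given in the sources used here. Left out of the DU145 data were 92 spike-in and 30 pseudoautosomal copy entries (at most 0.0512% of a library's reads). In the C4-2B and 22Rv1 tables many genes of few reads are absent, and an absent gene was not tested. All deposited per-sample columns were used.

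Within each line, genes of few reads were dropped (filterByExpr at its settings of 10 reads and 15 in all) before TMM scaling and the robust quasi-likelihood F test of edgeR 4.0.16 (R 4.3.3). A gene near 0 in 1 arm could pass this filter through the other arm alone. All adjusted p of single genes are by Benjamini-Hochberg over all genes tested, with a threshold of 0.05, and "rose" and "fell" mean past it. Levels are TMM-scaled CPM (counts per 1000000 reads) from the fit of each line alone. Each SE was derived from the F statistic. Differences between lines came from 1 edgeR fit of all 18 libraries on the 18445 genes in all 3 tables, of which 17152 were tested. A member near 0 in DU145 passed that joint filter through other lines. Replicates differed by more than sampling noise, with 2.23 to 7.87 as the chi-square of their counts over its degrees of freedom. The limit given for 0 reads covers counting error only, as the reads carry no molecular identifiers. The edgeR steps were tested on simulated data. With gene-wise dispersion the share of false calls came out above the threshold in each line, so an adjusted p just under 0.05 may be too small.

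Alternatives were RLE scaling, library totals, DESeq2 1.42.0, no filter, a replicate block, the fit of all libraries, summed near-identical copies and leaving out each library. Named beside the 10 enzymes are pathway genes past the threshold with a log2 fold change of at least 1 in size, near-identical copies, and the 2 most correlated genes each. CYP17A1, FDX1, FDXR, UGP2, UGT2B4 and the cell type markers are named outside this rule. The enzymes and lists were chosen with earlier results of these data known. Promoter sequences are from RefSeq (GRCh38.p14), coding stretches, lengths and positions from GENCODE v29 (GRCh38).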

Additional observations from a re-analysis of the deposited data

Results flagged for a closer look

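Of the 10 enzymes, 7 responded to EMD knockdown differently in at least 1 pair of lines. The test was that of the difference itself, in the edgeR fit of all 18 libraries. In a single pair 45.7% to 56.1% of all genes differed. The share of all genes that differ in at least 1 pair was not counted and cannot be smaller, so the 7 say little by themselves. For CYP11A1 the response of C4-2B minus that of 22Rv1 was 4.37 ± 0.40, and 22Rv1 minus DU145 was -5.98 ± 0.91 (adjusted p = 3.32e-11 and 1.1e-06). For UGT2B15 these were -2.53 ± 0.08 and 3.42 ± 0.40 (adjusted p = 1.34e-22 and 5.56e-09). Both genes are near 0 in DU145 and were tested there through the other lines' reads alone, so the second value of each is a comparison with 9 and 34 reads in the DU145 controls. HSD17B10 differed in all 3 pairs, at -0.76 ± 0.08 for C4-2B minus 22Rv1, -0.28 ± 0.08 for C4-2B minus DU145 and 0.47 ± 0.08 for 22Rv1 minus DU145. HSD17B6 did too, at 1.44 ± 0.27, -1.23 ± 0.28 and -2.67 ± 0.29 for the same pairs. SRD5A3 differed for C4-2B minus 22Rv1 (-0.71 ± 0.09) and 22Rv1 minus DU145 (0.52 ± 0.09). HSD17B4 differed for C4-2B minus DU145 (-0.23 ± 0.06) and 22Rv1 minus DU145 (-0.26 ± 0.06). For UGT2B17 C4-2B minus DU145 was 3.70 ± 1.43 (adjusted p = 0.0341), which rests on 3 reads in the DU145 controls and 0 in the knockdowns and was lost in 5 of 16 alternatives (adjusted p 0.0141 to 0.168). Line, table, batch label and, for DU145, medium and possibly reagent go together and cannot be told apart in these differences.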

How the results depend on the processing

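Counts of genes called stayed within 1.5 times of their values in all 111 alternatives run. Of 652 alternatives for single genes under knockdown, 620 kept direction and side of the threshold, 23 lost the call, 9 gained it and 0 turned direction. Of the enzyme calls, 4 in C4-2B, 7 in 22Rv1 and 3 in DU145 stood in every alternative. Directions turned for differences that had not passed in the first place. For SRD5A1, C4-2B minus 22Rv1 was -0.00850 with RLE scaling and -0.00868 with DESeq2, and 22Rv1 minus DU145 was -0.0240 with library totals. Leaving out each library in turn gave -0.0569 to 0.0548 for SRD5A1 in C4-2B minus 22Rv1, -0.0142 to 0.0992 in C4-2B minus DU145 and -0.00571 to 0.0953 in its control level, C4-2B against 22Rv1. It gave -0.44 to 0.16 for AKR1C3 and -0.0470 to 0.29 for EMD in C4-2B minus DU145, -0.0173 to 0.0473 for HSD17B4 in C4-2B minus 22Rv1, and -0.0728 to 0.67 for the control level of UGT2B7 in C4-2B against DU145. The cause was not tested. Same-numbered libraries shared no deviation in C4-2B (correlations -0.04 to 0.02) and 22Rv1 (-0.02 to 0.03) and a weak one in DU145 (0.04 to 0.29), so the numbers were not used to pair them. With the replicate number as a block 6623, 11146 and 9860 genes were called in C4-2B, 22Rv1 and DU145. The block was compared over 93 values, which include counts of genes called and values that had not passed. Of these, 91 kept direction and side of the threshold or, for counts, stayed within 1.5 times. HSD17B10 in DU145 gained its call (0.13, adjusted p = 0.0322), as did UGT2B15 in C4-2B minus DU145 (0.99, adjusted p = 0.0335). Depth limits UGT2B7 in all lines, UGT2B17 in 22Rv1 and DU145, CYP11A1 and UGT2B15 in DU145, and the size of the fall of CYP11A1 in 22Rv1.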
